A study of Mus musculus with 4 samples.

Results

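The T cell receptor loci were examined as 2 windows of the mouse build mm9: chr14:52800000-54900000, which covers the Tcra and Tcrd locus, and chr6:40800000-41560000, which covers the Tcrb locus. The peaks came from 4 CTCF libraries made by chromatin immunoprecipitation and sequencing (ChIP-seq). Peaks sharing 1 bp or more were joined into a region across libraries, and a region belonged to a locus when its centre lay in the window. This gave 27 of 29116 regions, 23 in the Tcra/Tcrd window of 2.1 Mb and 4 in the Tcrb window of 0.76 Mb. The libraries came from WEHI-231, a B cell lymphoma line of a (BALB/c x NZB)F1 mouse, with 2 libraries from cells carrying a stable knockdown of TFII-I (labelled TFII-I KD) and 2 from control cells (labelled CT). Both groups were cultured in the same medium, and an anti-CTCF antibody from Millipore was used in all 4. The labels do not say how the knockdown was made, what the control cells carry, or whether the replicates are separate cultures, and their spread may therefore be technical. The title of the series asks about a role of TFII-I, a transcription factor, in targeting CTCF to promoters.

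T cell receptor chains are assembled in developing T cells, where the RAG recombinase joins variable (V), diversity (D) and joining (J) segments that lie far apart on the chromosome. CTCF is a zinc finger protein that anchors chromatin loops and insulates genes from neighbouring enhancers. In mouse thymocytes CTCF sites are known near the enhancer behind Trac and among the V segments, where they take part in folding the locus. B cells rearrange immunoglobulin genes in place of T cell receptor genes, so these loci are generally silent in them. Transcription was not measured in these libraries, and the silence of the loci is background and not a result.

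The constant region genes Trac, Trdc, Trbc1 and Trbc2, which encode the membrane-near parts of the α, δ and β chains, were all listed in the RefSeq gene table for GRCm38. That table gave the order of the genes along each locus. On chromosome 14 Trav1, the first α V segment, follows the olfactory receptor genes Olfr1513 to Olfr1510 and Sall2, a zinc finger gene. A long run of V segments comes next, then the δ segments with Trdc, then the α J segments, then Trac and Dad1, a subunit of the oligosaccharyltransferase. The table held 136 V segments and V pseudogenes for the α and δ chains, of which 40 had a name with the letter d and 34 a name with the letter n, the mark of duplicated copies. On chromosome 6 Trbv1 follows Moxd2, the V segments and the trypsin genes, such as Prss1 and Prss2, come next, and the D and J segments with Trbc1 and Trbc2 stand before Trbv31 and the receptor tyrosine kinase gene Ephb6. Because this table is for a later build, no region was assigned to a gene, and the windows may hold parts of the neighbours named here.

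Each library had its own list of peaks, with 19076 and 15309 peaks in knockdown replicates 1 and 2 and 24467 and 23873 in control replicates 1 and 2. Every peak carries a score given by the authors' peak caller, from 50 upwards, which ranks peaks within a list. A score also grows with sequencing depth, which the lists do not give, so scores cannot be compared directly between libraries. Each score was therefore turned into a percentile of its own list, where 100 is the highest. A percentile depends on the length of its list, and both knockdown lists are shorter than both control lists.

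**Figure D1:**
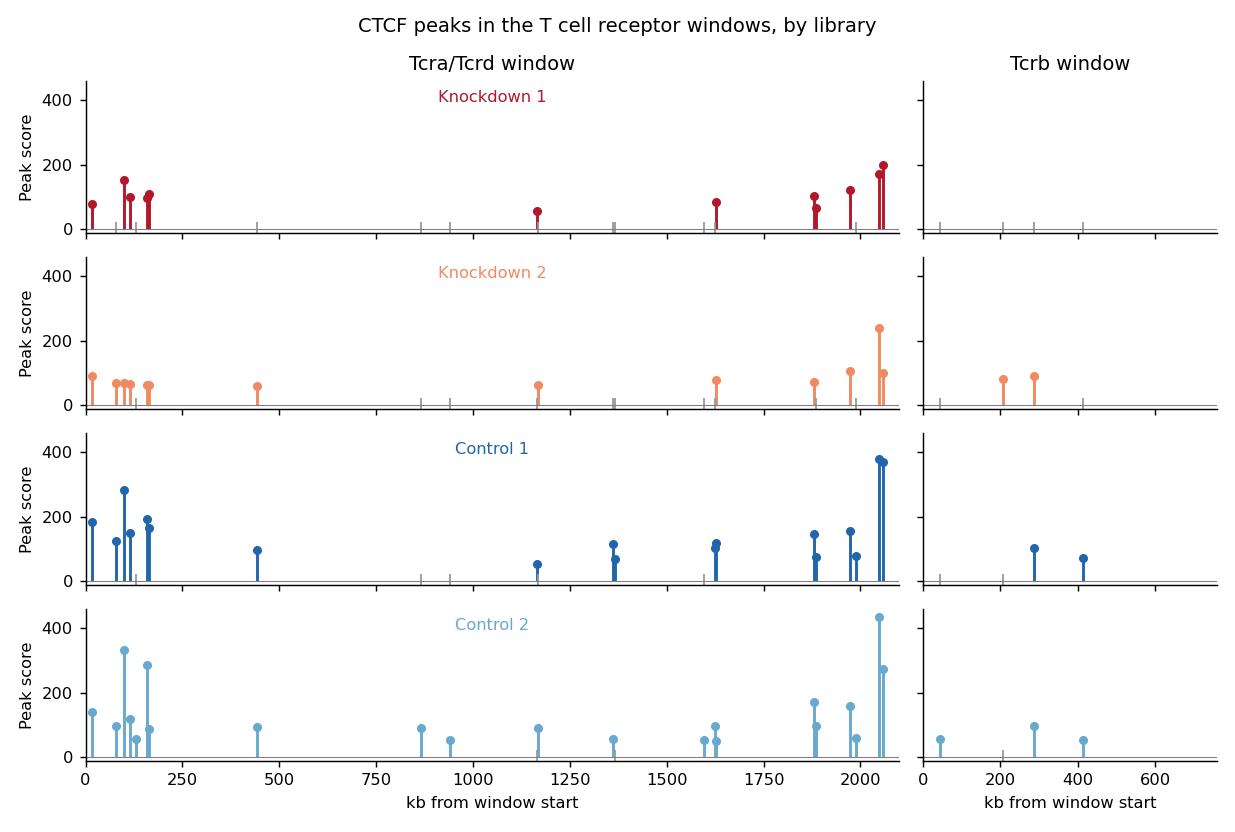
Peak score (vertical axis) of each CTCF region against its distance in kb from the start of the window (horizontal axis), with 1 row per library and grey ticks where a region had no call in that library. High scores stand at both ends of the Tcra/Tcrd window, up to 239.89 in the knockdown and 436.72 in the control libraries, while the scores in the Tcrb window reach 89.78 in the knockdown and 103.61 in the control libraries.

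In every library the highest score of both windows belonged to 1 of 2 regions at the high-coordinate end of the Tcra/Tcrd window, the side on which the gene order places Trac and Dad1. The region at chr14:54847400-54848260 scored 171 and 239.89 in knockdown replicates 1 and 2, against 380.45 and 437 in control replicates 1 and 2. These scores lay at percentiles 94.1 and 98.8 of the knockdown lists and 98.6 and 99.1 of the control lists, so this region was near the top of all 4 and had the highest score of both windows in each library but knockdown replicate 1. The next region, chr14:54858515-54859278, is the last of the window, with its centre 11.1 kb further on. It scored 197.91 and 98.1 in the knockdown libraries, against 369 and 274 in the controls, where 2 regions of the low-coordinate end scored higher in control replicate 2. Its percentile was 96.5 in knockdown replicate 1 and 70.1 in knockdown replicate 2, against 98.5 and 96.9 in the controls, so knockdown replicate 2 stood apart from the other 3 libraries.

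Further regions followed on the low-coordinate side of this pair. The region at chr14:54772536-54773086 scored 121 and 104 in the knockdown libraries and 156 and 158 in the controls. Its percentile was similar in every list, at 79.2 and 74.9 in the knockdown libraries against 74.0 and 77.6 in the controls, and the groups overlapped. The region at chr14:54679294-54679967 was called in all 4 libraries as well, with scores of 104 and 72.4 in the knockdown libraries and 146 and 169.52 in the controls. Its percentiles were 67.2 and 40.6 in the knockdown libraries, against 69.3 and 81.7 in the controls. A weaker region 4.78 kb away, chr14:54684096-54684733, scored 63.6 in knockdown replicate 1, had no call in knockdown replicate 2, and scored 74.9 and 95.3 in the controls.

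At the low-coordinate end, 7 regions were packed into the first 200 kb of the Tcra/Tcrd window, and 5 of them were called in all 4 libraries. The first, chr14:52815123-52815848, scored 76.3 and 89.2 in the knockdown libraries and 184 and 140.31 in the controls. Its percentiles were 39.5 and 62.1 in the knockdown libraries, against 83.5 and 69.5 in the controls. The strongest of the 7 in the controls was chr14:52898808-52899359, which scored 153 and 69.2 in knockdown replicates 1 and 2, against 282 and 334 in the controls. Its percentile differed between the knockdown lists, at 90.7 in replicate 1 and 34.9 in replicate 2, against 96.7 and 98.2 in the controls. The region at chr14:52958218-52958749 scored 96.1 and 61.9 in the knockdown libraries and 192 and 287 in the controls. It showed the same order, at percentiles 60.8 and 22.7 in the knockdown libraries against 86.0 and 97.3 in the controls. Its neighbour 4.94 kb on, chr14:52963145-52963700, overlapped between groups, at 71.2 and 20.6 in the knockdown libraries against 76.8 and 33.7 in the controls. Whether these regions lie among the first V segments or at the genes before Trav1 was not settled here, since no mm9 annotation was used.

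Between these ends lay a stretch of 1.46 Mb, from chr14:52963145-52963700 to chr14:54425748-54426350, without any region called in all 4 libraries. It held 9 regions, with 1 and 2 calls in knockdown replicates 1 and 2 and 5 and 7 calls in control replicates 1 and 2. The knockdown scores in the stretch ran from 55.3 to 63.2, and all scores there ran from 51.8 to 116. Of the 476 distances between neighbouring regions called in all 4 libraries on chromosome 14, 15 were longer (3.15%). When the window was divided into 3 equal parts, the first held 8 regions, the middle 6 and the last 9, and the middle part held 0 of the 10 regions that every library called. A missing call is not a missing CTCF site. How well reads can be placed on the repeated V segments of this locus was not tested. The longest distance between any neighbouring regions in the window was 423 kb, from chr14:53241836-53242418 to chr14:53665035-53665384, and 4.87% of the distances on chromosome 14 were longer. The first of these 2 regions scored 57.4 in knockdown replicate 2, had no call in knockdown replicate 1, and scored 95.4 and 92.7 in the controls.

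A pair of regions in the middle stretch was split by replicate number and not by group. The region at chr14:53965239-53965666 was called in knockdown replicate 1 and control replicate 1, with scores of 55.3 and 52.2. The region at chr14:53968761-53969196, 3.53 kb on, was called in knockdown replicate 2 and control replicate 2, with scores of 63.2 and 91.6. Over the genome, 662 regions (2.27%) were called in replicate 1 of both groups and in no other library, and 330 (1.13%) in replicate 2 of both groups.

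The Tcrb window held 4 regions, and none was called in all 4 libraries. Knockdown replicate 1 had no call in the window at all, while knockdown replicate 2 had 2, control replicate 1 had 2 and control replicate 2 had 3. The region at chr6:41086881-41087464 scored 89.8 in knockdown replicate 2 and 104 and 97.5 in the controls. It stood at percentile 62.6 in knockdown replicate 2 against 45.3 and 42.7 in the controls, so its place in the list was higher in the 1 knockdown library that called it. The first region of the window, chr6:40843482-40843910, was called in control replicate 2 alone with a score of 56.3. Distances between the 4 centres were 81.4 kb at the least, between chr6:41005602-41005849 and chr6:41086881-41087464, and 162 kb at the most, between the first region and chr6:41005602-41005849.

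No CTCF region was found in the last part of the Tcrb window, the side on which the gene order places the D and J segments and the constant genes Trbc1 and Trbc2. The last region of the window ended at 41213312, its centre 347 kb before the window's end, and the next region lay beyond the window at chr6:41711487-41712223. The 499 kb between these centres was exceeded by 44 of the 1611 distances on chromosome 6 (2.73%). A site whose score is under 50 in all 4 libraries is not in the lists, so weak binding was not detectable in this stretch.

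**Figure D2:**
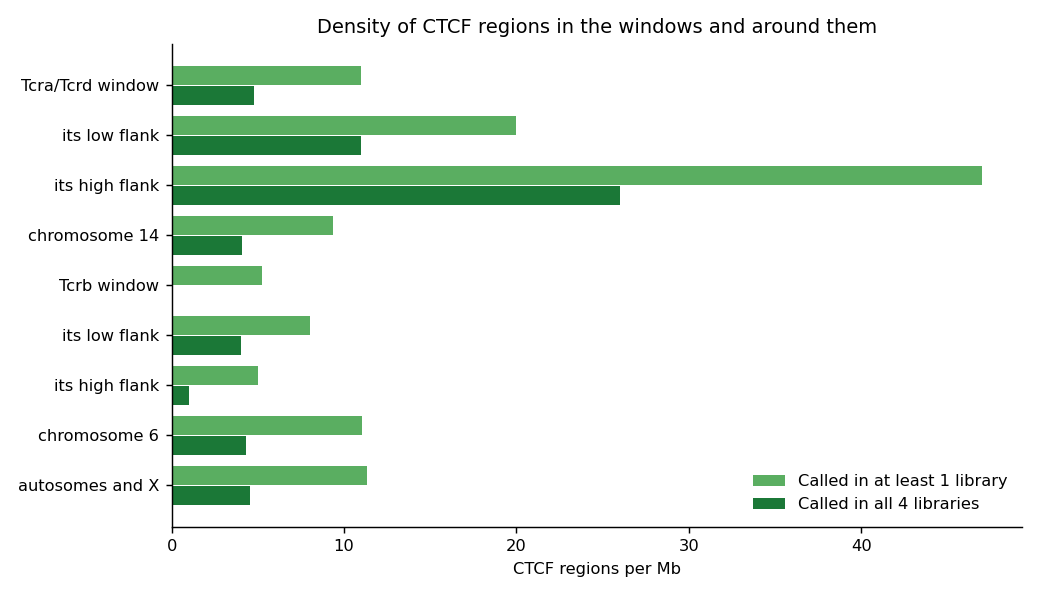
Number of CTCF regions per Mb (horizontal axis) in both T cell receptor windows, in the 1 Mb on either side of each, and over chromosomes 14 and 6 and the autosomes with X, with light bars for regions called in at least 1 library and dark bars for regions called in all 4. The Tcra/Tcrd window has 11.0 regions per Mb against 20 and 47 in its flanks, and the Tcrb window has 5.26 per Mb and no region called in all 4 libraries.

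The density of regions in the Tcra/Tcrd window was close to that of its chromosome and lower than in its surroundings. It held 11.0 regions per Mb, of which 4.76 per Mb were called in all 4 libraries. Chromosome 14 held 9.35 regions per Mb between its first and last region, with 4.09 called in all 4. The 1 Mb before the window held 20 regions and the 1 Mb after it 47, of which 11 and 26 were called in all 4 libraries. In the Tcrb window the density was 5.26 per Mb, against 8 and 5 regions in the 1 Mb before and after it and 11.0 per Mb over chromosome 6. These densities were not tested, since neighbouring regions are not replicates.

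Spacing in the Tcra/Tcrd window was uneven. Neighbouring centres were a median of 27.9 kb apart, against 31.4 kb on chromosome 14, but the upper quartile was 167 kb against 79.9 kb. Distances over 100 kb made up 6 of 22 in the window and 20.5% on the chromosome. Of 21 consecutive bins of 100 kb, 9 held no region and the fullest held 4. In the Tcrb window 5 of 8 bins were empty. The share of empty bins over the chromosomes was not computed, so the bin counts describe the windows and do not set them apart.

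The nearest regions outside the windows were 33.6 and 48.4 kb from the ends of the Tcra/Tcrd window and 161 and 152 kb from those of the Tcrb window. The one after the Tcra/Tcrd window, chr14:54948075-54948812, scored 109 and 116 in the knockdown libraries and 76.2 and 97.0 in the controls. The one before it, chr14:52766078-52766698, scored 60.5 and 95.0 in the knockdown libraries and 93.6 and 90.2 in the controls. These scores are not on a common scale between libraries.

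Fewer of these regions were called in the knockdown libraries than in the controls, as over the genome. Knockdown replicates 1 and 2 had a call in 12 and 15 of the 27 regions, or 13.5 ± 2.12 on average (SD, n = 2), and control replicates 1 and 2 in 20 and 24, or 22 ± 2.83 on average (SD, n = 2). The knockdown libraries thus had 61.4% as many calls as the controls, against 71.0% over all regions. Both knockdown libraries lay below both controls, and the two-sided exact permutation test gave p = 0.333, the smallest value that 2 libraries against 2 allow. When every list was limited to its 15309 highest-scoring peaks, 11 and 15 regions were called in the knockdown libraries and 15 and 15 in the controls, so that the groups no longer separated.

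Within each group the share of regions called did not follow the length of the list. Knockdown replicate 1 had a call in 44.4% of the T cell receptor regions, against 65% of all regions, and knockdown replicate 2 in 55.6% against 52.4%. Control replicate 1 had a call in 74.1% against 83.8%, and control replicate 2 in 88.9% against 81.8%. In both groups the list with more peaks, replicate 1, thus had fewer calls in these windows than replicate 2. With 27 regions the exact 95% Clopper-Pearson interval of the share was 25.5 to 64.7% for knockdown replicate 1 and 35.3 to 74.5% for knockdown replicate 2, and it covers counting error over regions only.

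**Figure D3:**
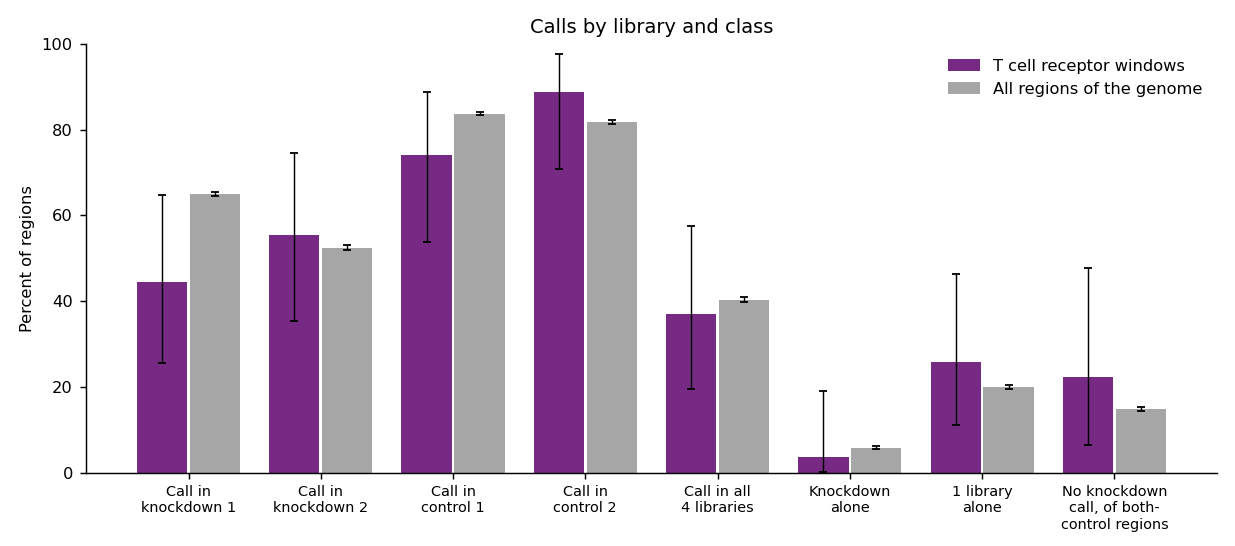
Percent of regions (vertical axis) with a call in each library or in each class, for the 27 regions of the T cell receptor windows (left bar of each pair) and all 29116 regions (right bar), with error bars for the exact 95% Clopper-Pearson interval. The last pair takes the regions called in both controls, 18 and 20780. Regions called in all 4 libraries make up 37.0% and 40.3%.

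Every region that was called in all libraries lay in the Tcra/Tcrd window. These were 10 of 27 (37.0%), against 40.3% of all regions, and both knockdown libraries shared a call in no region but these, so that 37.0% stood against 42.7% for calls in both. Regions called in both controls numbered 18 of 27 (66.7%), against 71.4%. Regions called in control libraries alone, in 1 or both, numbered 10 of 27 (37.0%), against 25.2%. Of the 18 regions called in both controls, 4 had no call in either knockdown library (22.2%, 95% interval 6.41 to 47.6%), against a background of 14.8%, and 10 were called in both (55.6% against 56.5%). A further 1 was called in knockdown replicate 1 alone of the knockdown pair and 3 in knockdown replicate 2 alone, against 21.1% and 7.63% of all such regions. These shares lay near the background for a set of this size, and no loss particular to the T cell receptor loci is read from them. Without knockdown replicate 2 the regions with control calls and no knockdown call were 7 of 18 (38.9%), against 22.4% of all such regions. Without control replicate 1 they were 9 of 24 (37.5%), against 21.1%, and without control replicate 2 they were 5 of 20 (25%), against 22.1%. The order was reversed without knockdown replicate 1, at 5 of 18 (27.8%) against 35.9%. With a score of at least 100 they were 3 of 8 (37.5%), against 39.5%. At equal list length they were 1 of 12 (8.33%), against 7.27%.

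The 4 regions that were called in both controls and in neither knockdown library were of low to middle strength. The strongest by mean percentile, chr14:54423774-54424344, scored 102 and 96.5 in control replicates 1 and 2. It forms the closest pair of the window with chr14:54425748-54426350, whose centre lies 1990 bp on. That neighbour was called in all 4 libraries, with 83.01 and 77.2 in the knockdown libraries and 119 and 50.05 in the controls, so that a kept and a missing call stood side by side. In control replicate 2 the neighbour was at percentile 0.0482, just above the lowest score of the list, and the order of the pair was reversed there.

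A second region without knockdown calls, chr14:54161404-54161744, scored 116 and 57.3 in the controls, at percentiles 53.4 and 8.24. The region 5.62 kb on, chr14:54166955-54167431, was called in control replicate 1 alone with a score of 66.99. The third, chr14:54788117-54788646, lay between the kept regions at the high-coordinate end and scored 77 and 57.6 in the controls. The last was chr6:41212756-41213312 in the Tcrb window, with 71.3 and 52.7. The control scores of these 4 ran from 52.7 to 116. Their median was 89.5 in control replicate 1 and 57.4 in control replicate 2. For the regions called in every library it was 173 and 164. A weak peak more easily falls under the lowest score of another list, so the classes favour this order by construction. The same medians over all regions were not computed.

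A single region was called in the knockdown alone, chr6:41005602-41005849 in the Tcrb window. It scored 81.4 in knockdown replicate 2, at percentile 53.3, and was not called in knockdown replicate 1, so it rests on 1 library. Regions called in knockdown libraries alone made up 3.70% here and 5.84% of all regions.

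Single-library calls in these windows came mostly from control replicate 2, and how such calls divide between libraries over all regions was not computed. Of the 7 regions called in 1 library, 5 were of control replicate 2, 1 of control replicate 1 and 1 of knockdown replicate 2, and together they made up 25.9%, against 20% of all regions. In control replicate 2, 8 of 24 calls in the windows had a score under 60 (33.3%), against 11.2% of its whole list. Such calls were 1 of 12 (8.33%) in knockdown replicate 1 against 17.0% of its list, and 1 of 15 (6.67%) in knockdown replicate 2 against 18.8%. They were 1 of 20 (5%) in control replicate 1 against 10.7%. With 1 such call in each of these libraries, no departure from their lists is read from the counts. Scores of at least 100 were reached by 6 of 12 calls (50%) in knockdown replicate 1, against 35.7% of its list, and by 2 of 15 (13.3%) in knockdown replicate 2, against 28.4%. In control replicate 1 they were reached by 14 of 20 calls (70%), against 57.1% of its list, and in control replicate 2 by 8 of 24 (33.3%), against 55.4%. In each group the share thus lay above that of the list in replicate 1 and below it in replicate 2.

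**Figure D4:**
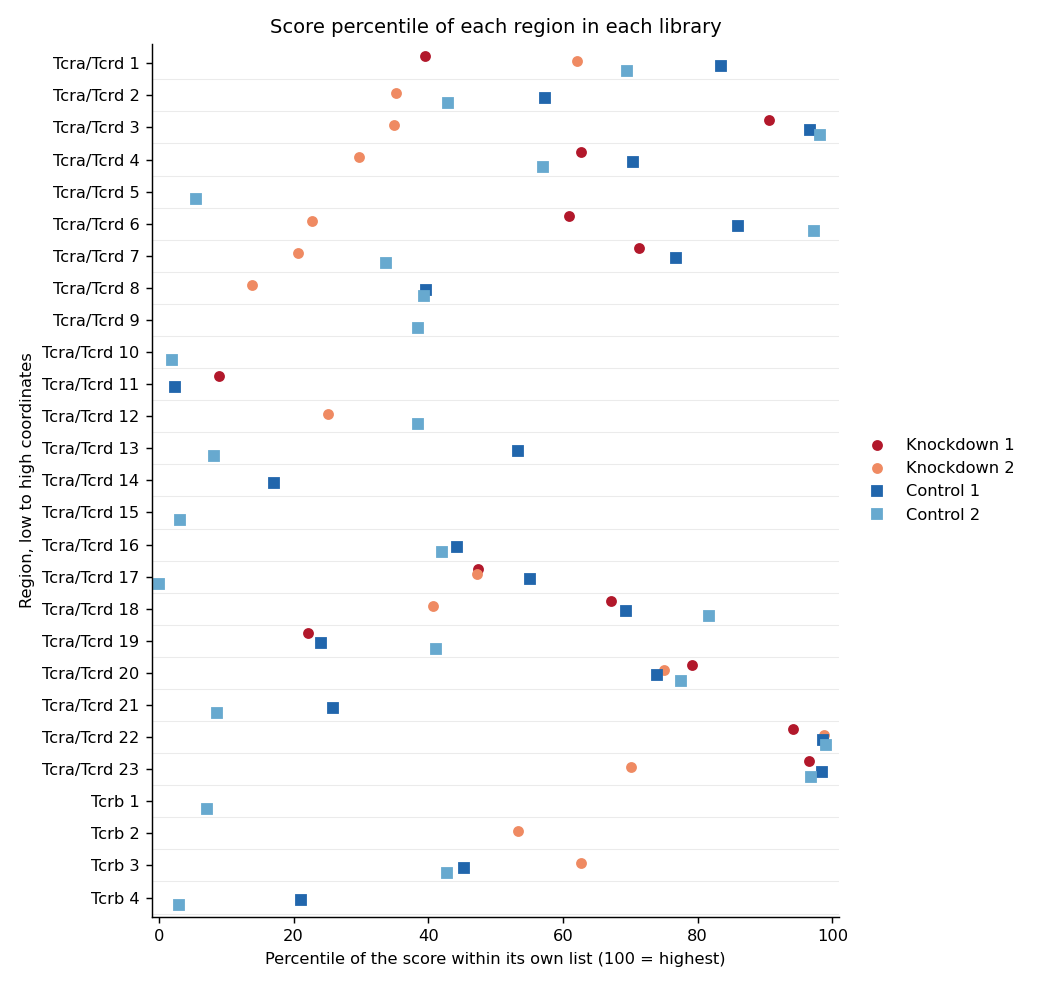
Percentile of each region's score within its own list (horizontal axis, 100 the highest) for the 27 regions in order of position (vertical axis), with circles for the knockdown and squares for the control libraries. Region 22 of the Tcra/Tcrd window stands at 94.1 or more in every library, while for region 3 knockdown replicate 2 stands at 34.9 and the other libraries at 90.7 or more.

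Regions called in all 4 libraries stood lower in the knockdown lists than in the control lists, mainly through knockdown replicate 2. Their mean percentile was 70.9 and 50.2 in knockdown replicates 1 and 2, a mean of 60.6 ± 14.7 (SD, n = 2), and 80.9 and 71.1 in control replicates 1 and 2, a mean of 76.0 ± 6.93 (SD, n = 2). The difference was -15.4 points, with p = 0.333 by the two-sided exact permutation test over libraries, again the smallest possible. Over all 11741 such regions the difference was -8.29 points, at 59.6 and 55.5 in the knockdown and 66.1 and 65.6 in the control lists. It was -5.56 points without knockdown replicate 2 and -8.88 points with both windows widened by 50 kb, so its size rests on that library and on where the windows end. The groups were separated by knockdown replicate 1 at 70.9 against control replicate 2 at 71.1. They overlapped with the windows widened or narrowed by 50 kb, with p = 0.667 by the same exact test in each case, and with a score of at least 100, with an exact p of 1.

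For 5 of the 10 regions both knockdown percentiles lay under both control percentiles, against a background of 28.9%, and for 0 of 10 both lay above, against 11.1%. The 5 were chr14:52815123-52815848, chr14:52898808-52899359, chr14:52958218-52958749, chr14:54679294-54679967 and chr14:54858515-54859278. In all 5 the control percentiles were at least 69.3, which the way they were chosen favours. This was not particular to them. The control percentiles were 74.0 and 77.6 at chr14:54772536-54773086 and 98.6 and 99.1 at chr14:54847400-54848260, where the groups overlapped. For the other 5 the groups overlapped, among them the strongest region of the loci, chr14:54847400-54848260. A percentile places a peak among the others of its list and is not a measure of bound CTCF.

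In the 10 regions called in all 4 libraries, the centres of the 4 peaks lay within 41 to 150.5 bp of each other, with a median spread of 94.5 bp, against 99.5 bp over all such regions. Joining overlapping peaks into 1 region limits this spread by construction. Peaks were narrower in the knockdown libraries, with median widths of 323 and 456 bp in the 10 regions, against 561 and 487 bp in the controls. In knockdown replicate 1 the peak was narrower than both control peaks in 10 of 10 regions, against 86.0% over all regions, and in knockdown replicate 2 in 6 of 10, against 54.2%.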

How the data were processed

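Per the labels, CTCF-DNA complexes were precipitated from nuclear lysates and the libraries were run on an Illumina HiSeq. BWA, HOMER and mm9 appear in the submitters' processing notes, with neither versions nor roles, and MACS in the names of the peaks. The authors deposited 1 list per library with a score per peak and no depth, tag count or input value. If that score is -10 times log10 of p, as MACS lists usually give, its lowest value of 50 is a p of 1e-05; the file does not state this.

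Peaks were joined across lists as described above, and the highest score per library was kept. Libraries were compared by two-sided exact permutation tests, and shares are given beside all regions, with no test. The members and gene lists were chosen with earlier results of these data known. Named regions are those without knockdown calls, those called in knockdown alone, the 5 kept regions with the highest control percentile per window, the outermost regions, and the closest and farthest neighbours; others named were chosen after their values were seen. Gene names and order come from RefSeq for GRCm38.p6, where 4 of 4 constant genes matched; mm9 sequence was not used here. Alternatives were a reciprocal overlap of 50%, merging within 500 bp, a score of at least 100, equal list length, windows widened or narrowed by 50 kb, leaving out each library and a replicate block. Merging was tested on lists simulated from control replicate 1 alone, with small shifts of the peaks and unchanged widths. The real lists differ more in placement, width and length, so this test says little about merging them. Calculations used python 3.11.15, numpy 2.4.6, pandas 2.3.3, scipy 1.17.1 and matplotlib 3.10.9.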

Additional observations from a re-analysis of the deposited data

How the results depend on the processing

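Of 52 recomputed values, 44 kept their direction or stayed within 1.5 times the reported value. Many of the 52 are counts, which have no direction. A difference was counted as kept when its sign stayed, whatever its size, so the 44 are not a measure of stability. At equal list length the difference in regions called was -2, against -8.5 as reported, and it was counted as kept. With a score of at least 100, 2 of 14 regions (14.3%) were called in all 4 libraries and 0 in knockdown alone, against 14.6% and 3.50% of all regions; this uses fewer peaks by construction. At equal list length, 1 of 12 regions (8.33%) called in both controls had no knockdown call, against 7.27% of all such regions. Leaving out 1 library gave 5 to 9 such regions (25 to 38.9%), against 21.1 to 35.9% of all such regions. Regions in knockdown alone were then 0 to 2 (0 to 9.09%), against 2.63 to 11.2%. Those called in all remaining libraries were 10 to 13 (38.5 to 48.1%), against 44.3 to 56.5%. Fewer calls are required when a library is left out. Leaving out 1 library gave differences of -10.5 to -6.5 in regions called and of -21.6 to -5.56 points in mean percentile. The percentile difference was -0.540 with a score of at least 100, where it rests on 2 regions, and -20.6 at equal list length; the cause was not tested. A replicate block, the difference within replicate number, gave -8.5 regions and -15.4 points, each with p = 0.5 by the exact sign-flip test, the smallest that 2 pairs allow; the labels do not say that the numbers pair the libraries. Sites scoring under 50 are not in the lists.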

Other observations

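A pair of peaks of control replicate 2 in the Tcra/Tcrd window had the same width and the same score. The peak at chr14:53665035-53665384 and the peak at chr14:53968776-53969125 were both 350 bp wide with a score of 91.56, and both their starts and their ends lay 303741 bp apart. The first was called in no other library, and the second was also called in knockdown replicate 2, where it scored 63.2. Pairs of peaks with equal width and equal score within 1 Mb were few in each whole list: 5 and 7 in knockdown replicates 1 and 2, and 5 and 8 in control replicates 1 and 2. Gene names with the letters d and n show that V segments of this locus exist in repeated copies, and whether these 2 peaks lie on such copies was not tested, since no mm9 sequence was used here.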
